A study of Mustela putorius furo and Mus musculus with 4 samples.

Results

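In the cortex of a ferret embryo at E39, 912 of 23241 cells carried a combination of markers led by S100A10 and EPHA6 and including CALB2, and most of them had the transcripts of young excitatory neurons. A cell was selected if it had at least 750 detected genes, at least 1 unique molecular identifier (UMI) of at least 3 of the 6 genes S100A10, EPHA6, SLN, CALB2, COL12A1 and RERG, and 0 UMI of EOMES, LHX6 and ADARB2. The selected cells were 3.92% of the ferret cells (exact Clopper-Pearson 95% interval 3.68 to 4.18), and they are 912 of 41602 cells in the whole series. EOMES marks the intermediate progenitors of pyramidal neurons, LHX6 marks interneurons of the medial ganglionic eminence and ADARB2 marks many interneurons of the caudal ganglionic eminence. Since the 6 markers chose the cells, their high levels in them are a description and not a result.

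The study sequenced single cells of the ferret cortex at E39 and of the mouse cortex at E18 to follow how the neurogenic period is controlled. The mouse cells came from control (Smo F/F) and Smo CKO littermates and are used here only in the last paragraph. The ferret was wild type, the tissue was the cortex of 1 embryo, dissociated with papain, and the cells were not sorted by a marker. Strain and sex of the ferret are not given in the sources used here. The cells fall by barcode suffix into 2 sets, called set 1 and set 2, which could not be tied to the labelled samples. Because both sets come from 1 embryo they are not replicates, so no test was made, and every interval below covers counting error only.

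Excitatory neurons of the cortex are born from radial glia, partly through intermediate progenitors, and migrate to layers that differ in their transcription factors and axonal targets. CUX2 and BCL6 are typical of upper layers, RORB of layer 4, FEZF2 of layer 5 and TLE4 and FOXP2 of layer 6 neurons that project to the thalamus. Of the selection markers, S100A10 is a small protein that binds annexin A2, EPHA6 is a receptor for ephrin-A guidance cues, SLN (sarcolipin) inhibits a calcium pump, CALB2 (calretinin) binds calcium, COL12A1 is a fibril-associated collagen and RERG is a small GTPase of the RAS family. CALB2 is best known in the cortex as a marker of interneurons and of Cajal-Retzius neurons, which makes the identity of these cells a question to check.

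Set 1 held 10187 cells with at least 750 genes and set 2 held 13054, and the median total was 2556 UMIs per cell in set 1 and 3563 in set 2. The selected cells were deeper, with a median of 4496 UMIs in set 1 and 6799 in set 2. In all, 18.5% of them lay among the deepest 5% of cells of their set. A selection by detected genes favours deep cells, so depth is given for the groups compared. No selected cell exceeded 5000 genes or reached 10% mitochondrial UMIs. The sets shared 38 barcodes, and none of these was shared by 2 selected cells.

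The number of selected cells differed between the sets. They were 208 cells or 2.04% of set 1 (1.78 to 2.34) and 704 cells or 5.39% of set 2 (5.01 to 5.79). When each cell was thinned to 2000 UMIs by a random draw, which left out shallower cells, 65 of 7391 cells of set 1 (0.879%, 0.679 to 1.12) and 166 of 11516 cells of set 2 (1.44%, 1.23 to 1.68) met the rule, of which 61 and 156 had met it before thinning. The share was therefore higher in set 2 with and without thinning, and the gap was smaller at equal depth. The sample behind each suffix is unknown, so the part of tissue piece, preparation and depth in this gap cannot be told apart.

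Most selected cells carried S100A10 and EPHA6 together. A UMI of EPHA6 was found in 839 cells (92.0%), of S100A10 in 825 (90.5%), of RERG in 68.5%, of CALB2 in 276 (30.3%), of COL12A1 in 271 (29.7%) and of SLN in 128 (14.0%). The commonest of 34 combinations was S100A10, EPHA6 and RERG alone, in 325 cells (35.6%). Exactly 3 markers were found in 715 cells, 4 in 167, 5 in 29 and all 6 in 1 cell. CALB2 was thus absent from the counts of most of these cells. These shares come from the genes that chose the cells. In the other excitatory neurons described below, S100A10 and EPHA6 were also commoner (24.7% and 23.9%) than CALB2 (1.94%).

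The cutoff did not fall at a gap in the data. Outside it stood 1963 cells with exactly 2 of the 6 markers and none of the 3 excluded genes, of which 81.8% had the excitatory genes described below, against 86.0% of the 715 cells with exactly 3 markers. The median total was 5174 UMIs just outside and 6276 just inside. A further 95 cells with at least 3 markers were left out for a UMI of ADARB2 (69 cells), EOMES (18) or LHX6 (11).

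The 6 markers were chosen together with earlier results of these data known, so how often they share a cell is a description of that choice. CALB2 was found in 0.918% of the 11214 cells without any of the other 5 markers (0.75 to 1.11), in 3.06% of those with 1 other marker, in 8.43% with 2 and in 14.7% of the 746 cells with at least 3 (12.3 to 17.5). Cells with more markers were deeper, so the share expected at 2000 UMIs per cell was also computed. It was 0.602%, 1.48%, 3.76% and 6.50% for CALB2.

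At 2000 UMIs the share rose in the same order for each of the 6 markers. From cells with none to cells with at least 3 of the other markers, S100A10 went from 14.2% to 51.8%, EPHA6 from 11.1% to 52.1% and RERG from 2.52% to 15.8%. COL12A1 went from 1.39% to 5.2% and SLN from 0.305% to 2.72%. Without thinning, cells with at least 3 other markers differed by set. CALB2 was found in 3.26% of such cells of set 1 and 18.5% of set 2, RERG in 18.2% and 45.3% and EPHA6 in 56.5% and 75.8%, and set 2 was the deeper set. COL12A1 was found in 15.6% and 12.2% and SLN in 6.78% and 6.64%.

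**Figure D1:**
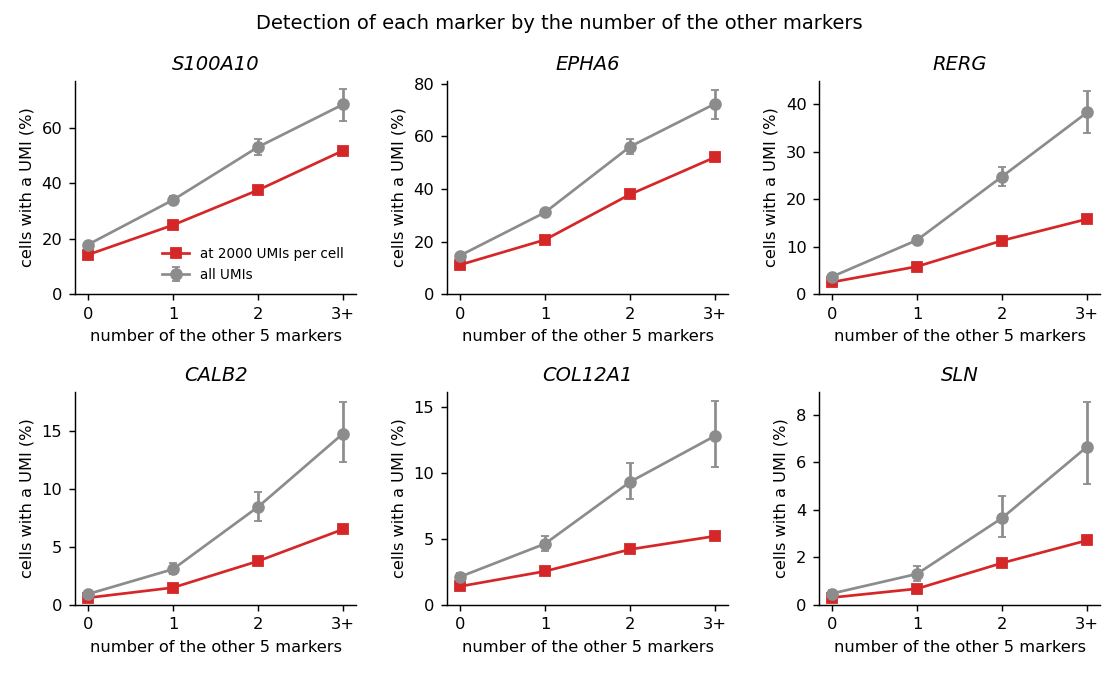
Share of ferret cells with a UMI of each marker (y axis, percent) by how many of the other 5 markers the cell had (x axis). Grey points are all UMIs with exact 95% intervals and red squares the expected share at 2000 UMIs per cell. Every line rises, for CALB2 from 0.602% to 6.50% at 2000 UMIs.

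The selected cells had the transcripts of cortical excitatory neurons. NEUROD6, a transcription factor of pyramidal neurons, was found in 96.9% of them, MEF2C in 95.1% and NEUROD2 in 80.3%. Neuronal transcripts were also found in other cells. NEUROD6 had a UMI in 39.0% and NEUROD2 in 27.3% of 172 cells with microglial markers, which should lack them, at a median of 3145 UMIs. Free RNA and doublets cannot be told apart in these values. The shares in the selected cells stood above them, at a higher median of 6350 UMIs. MEF2C is no guide here, since it had a UMI in 87.8% of the same microglial cells. Of the selection markers, S100A10 was also found in 54.5% of 222 cells with vascular markers, against 0.45% for CALB2, so S100A10 is not particular to neurons.

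Of the 912 cells, 784 (86.0%) had a UMI of at least 3 of the 6 excitatory genes NEUROD2, NEUROD6, BHLHE22, SLC17A7, SLC17A6 and MEF2C. The other 128 were shallower, with a median of 5062 UMIs, and 82.8% of them had NEUROD6. Neither NEUROD6 nor NEUROD2 was found in 14 selected cells. Such cells cannot be called neurons from these genes.

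Most defining markers of interneurons and Cajal-Retzius neurons were found in few selected cells, and for interneurons the required absence of LHX6 and ADARB2 contributes to this. GAD1 and GAD2, the enzymes that make GABA, had a UMI in 8 and 7 of the 912 cells. Of the Cajal-Retzius markers, TP73 and LHX1 were each found in 2 cells and LHX5 in none, which allows up to 0.329% of cells with a UMI and sets no limit on cells that express it. RELN, which Cajal-Retzius neurons secrete, was found in 8.55% of selected cells and 6.69% of other excitatory neurons. At least 2 of the 12 inhibitory markers were found in 14 cells (1.54%, beside 0.977% of other excitatory neurons) and at least 2 of the 7 Cajal-Retzius markers in 10 (1.097%, beside 0.294%). Both shares were higher in the selected cells, which were also deeper.

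Few selected cells had the markers of vascular, immune or glial lineage cells, while FABP7 and PTPRZ1 of the radial glia list were widespread. At least 2 of the 8 radial glia markers were found in 587 selected cells (64.4%), beside 63.2% of other excitatory neurons. FABP7 was found in 99.6% of selected cells but also in 86.0% of the microglial cells, so it is no guide here. PTPRZ1 was found in 55.8% of selected cells of set 1 and 58.0% of set 2. Each other marker of the list was rarer, from VIM (11.1% and 9.80%) down to HES1 (1.92% and 0.568%). At least 2 endothelial markers were found in 5 cells (0.548%, beside 0.285% of other excitatory neurons). The counts were 5 for mural and mesenchymal cells (0.548%, beside 0.180%) and 2 for microglia (0.219%, beside 0.313%). They were 2 for the glial lineage (0.219%, beside 0.142%) and 29 for cycling cells (3.18%, beside 2.63%). Except for microglia the share was higher in the selected cells, which were also deeper. Fewer than 3 excitatory genes were found in 4 of the 5 endothelial and 4 of the 5 mural cells. A few cells weighed on single genes, since 4 cells held 100 of the 110 UMIs of CLDN5, a tight junction gene of endothelium. No doublet caller was run.

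To find which other genes set these cells apart, they were compared with 10543 other excitatory neurons, which had at least 3 of the 6 excitatory genes, none of the 3 excluded genes and at most 2 of the 6 markers. Their median total was 3520 UMIs. UMIs were summed over cells and expressed as CPM, which scales each group to the same total of UMIs. A gene was called higher or lower if log2(CPM + 10) differed by at least 1, which is 2-fold on that scale, in the same direction in both sets, among genes with at least 20 UMIs in each set.

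The genes higher in the selected cells included an adrenergic receptor, protocadherins and other cell surface proteins, and the lower ones included CUX2, SEMA3C and UNC5D. Of 13446 genes, 21 were higher (0.156%) and 27 lower (0.201%). The 21 include the 6 markers and 2 genes without a symbol, and 12 others are CSMD3, CXXC4, ADRA1A, DGKB, PCDH17, PDE1A, LRP1B, PCDH10, LRRC4C, MASP1, CSMD2 and RND3. Fewer genes passed at matched depth. Against 2046 other excitatory neurons drawn to match the totals of the selected cells in each set, 8 genes were higher (0.0753% of 10630) and 4 lower (0.0376%). Against all other ferret cells, of every type, 43 genes were higher (0.284%) and 147 lower (0.97%).

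The 8 genes higher against the matched neurons included the 6 markers and ADRA1A. The 4 lower ones were CUX2, NTS, EZR and DLG1. All 12 named higher genes remained above 0 and all 15 named lower genes below 0 in both sets after matching. Of all 10630 genes compared with matched neurons, 2520 were above 0 and 3783 below 0 in both sets. The named genes were chosen against the pool that holds the matched neurons, so their signs give no independent support. Their median log2 ratio went from 1.37 to 0.87 for the higher and from -1.42 to -0.89 for the lower genes. For the named genes the ratio to matched neurons is given beside the ratio to all other excitatory neurons. Set 2 holds 704 of the 912 selected cells but 5685 of the 10543 others. For a gene that differs between sets, the ratio over both sets can therefore lie outside the values of the single sets. Where the printed digits show this for the ratio to all other excitatory neurons, the values by set are given. Matched ratios are given by set for some genes only.

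**Figure D2:**
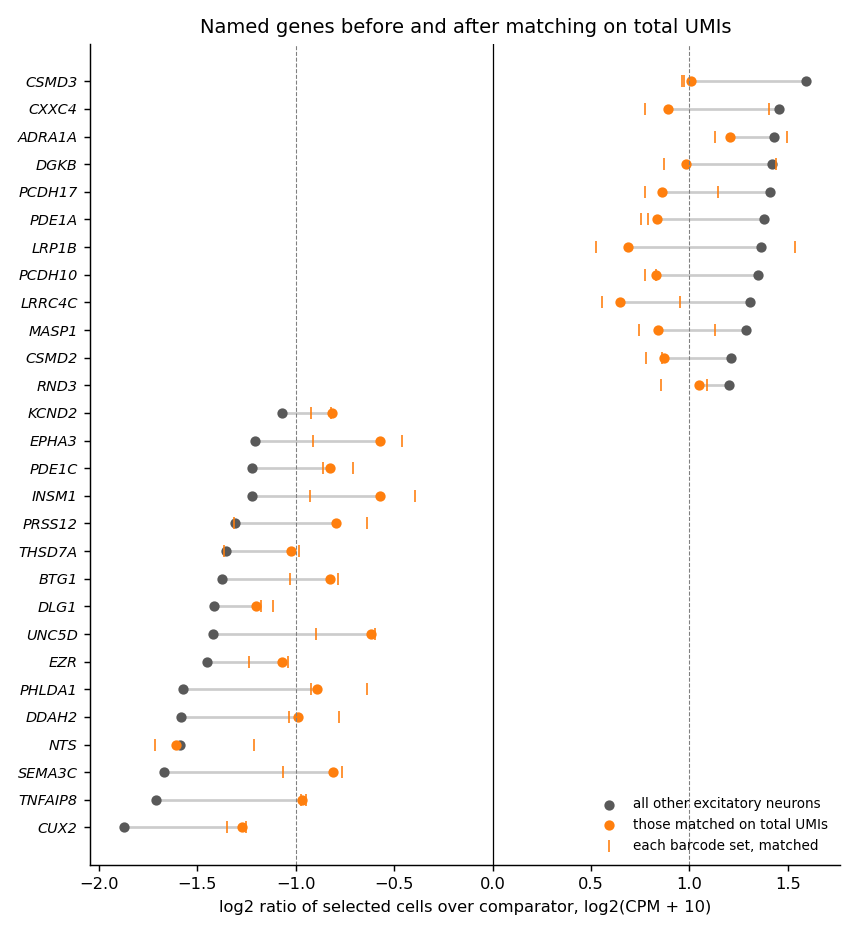
Log2 ratio (x axis, log2(CPM + 10)) of the selected cells over all other excitatory neurons (grey) and over those matched on total UMIs (orange, with each set as a tick) for the 28 named genes. Matching moved each gene but NTS towards 0, as for CSMD3 from 1.59 to 1.01, and turned none.

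ADRA1A, the alpha-1A adrenergic receptor, was the named gene that stayed past the fold in both sets on the higher side after matching, besides the markers. It had 39.2 and 40.5 CPM in the selected cells of sets 1 and 2 and 5.44 and 10.5 in the others, a log2 ratio of 1.43 that was 1.20 against matched neurons. It was found in 19.0% of selected cells and 2.58% of the others, so most selected cells had no UMI of it. The TLE4 FOXP2 cells described below had a like level over both sets, at 40.6 CPM beside 40.3 in the selected cells, with 10.4 CPM in set 1 and 57.6 in set 2.

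CSMD3, a large transmembrane protein with CUB and sushi domains, had 358 and 572 CPM in the selected cells and 109.8 and 207 in the others, with a log2 ratio of 1.59 that was 1.01 when matched (0.96 and 0.97 in the 2 sets, just short of the fold). Its relative CSMD2 had log2 ratios of 1.21 (1.17 and 1.12 in the sets) and 0.87 matched. LRP1B, of the LDL receptor family, had 518 and 650.4 CPM against 116.7 and 309, and its matched ratio differed by set, at 1.54 in set 1 and 0.52 in set 2.

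PCDH17 and PCDH10, protocadherins that join like neurites, had log2 ratios of 1.41 and 1.35, or 0.86 and 0.83 matched. By set, PCDH10 had 1.22 and 1.17. PCDH17 was found in 63.2% of selected cells and 19.3% of the others, and PCDH10 in 41.9% and 11.2%. They were the only 2 genes past the fold among 17 cadherins and protocadherins compared, whose median log2 ratio was 0.08. CDH8, a classical cadherin, had 0.88 in set 1 and 0.82 in set 2, and 0.46 and 0.37 matched. LRRC4C, the netrin-G1 ligand of excitatory synapses, had log2 ratios of 1.31 and 0.65 matched.

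PDE1A, a phosphodiesterase that calcium and calmodulin activate, was found in 49.7% of selected cells and 13.9% of the others, with log2 ratios of 1.38 (1.15 and 1.21 in the sets) and 0.84 matched. DGKB, a diacylglycerol kinase, had 232 CPM in set 1 and 116 in set 2 of the selected cells and 51.5 and 40.0 in the others, with a matched log2 ratio of 0.98 (1.44 in set 1 and 0.87 in set 2, where it missed the fold). CXXC4, an inhibitor of WNT signalling, had log2 ratios of 1.45 and 0.89 matched, RND3, a small GTPase, 1.20 (1.12 and 1.19 in the sets) and 1.05, and MASP1, a protease of the complement lectin pathway, 1.29 (1.21 and 1.09) and 0.84.

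**Figure D3:**
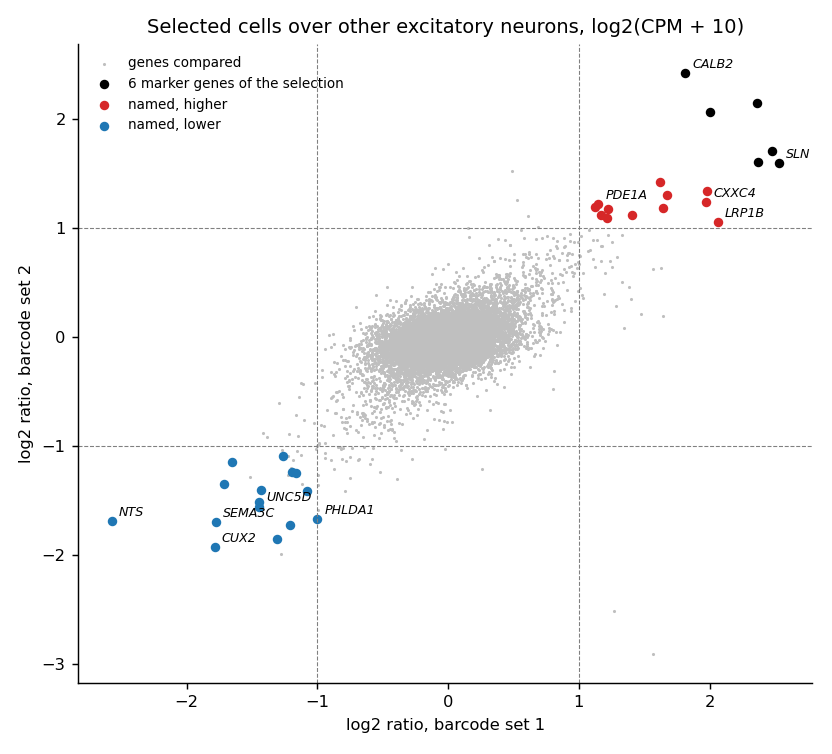
Log2 ratio of selected cells over other excitatory neurons in set 1 (x axis) and set 2 (y axis) for the genes compared (grey), with the 6 selection markers (black) and the named higher (red) and lower (blue) genes. Dashed lines mark 2-fold, and the named genes lie past it in both sets.

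Over both sets and all other excitatory neurons, CUX2 had the lowest log2 ratio of the named genes. NTS was lower in set 1 (-2.57) and against matched neurons (-1.61), but its value rests on few cells. CUX2 had 59.3 and 61.0 CPM in the selected cells of sets 1 and 2 against 229 and 260.4 in the other excitatory neurons. The log2 ratio was -1.87, and -1.27 against matched neurons, past the fold in both sets. At 2000 UMIs CUX2 was expected in 8.98% of selected cells and 35.4% of the others. Without thinning it was found in 19.5% of selected cells, beside 15.7% of the microglial and 13.1% of the vascular cells, which should lack it and were shallower. The part of free RNA or doublets in the CUX2 UMIs of selected cells was not tested.

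The other upper-layer genes went less far. Of 12 such genes CUX2 alone was past the fold, and the median log2 ratio was -0.48. CUX1 stood at -1.06 (-0.94 and -0.98 in the sets), BCL6 at -0.81 and POU3F2 at -0.79, while LMO4, a LIM-only factor that marks a subset of cortical neurons and areas, stood at 0.98 (1.24 in set 1 and 0.69 in set 2). LMO4 was found in 87.5% of selected cells and 50.2% of the others, against 47.1% of the microglial cells. Its matched log2 ratio was 0.45 (0.97 in set 1 and 0.34 in set 2). The matched values of CUX1, BCL6 and POU3F2 were -0.73, -0.68 and -0.50.

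UNC5D and INSM1 were the lower genes among those of migrating neurons and progenitors. UNC5D, a netrin receptor of multipolar migrating neurons, had 112.5 and 171 CPM against 323 and 523, a log2 ratio of -1.42 (-1.44 and -1.56 in the sets) that was -0.62 when matched. INSM1, a zinc finger factor of basal progenitors, had -1.22 and -0.57 matched. All 6 intermediate progenitor genes compared were below 0 in both sets, with a median of -0.28, and 4 of 5 genes of newborn neurons were below 0 in both sets, beside 5060 of all 13446 genes. Only INSM1 and UNC5D of these were past the fold.

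Besides the netrin receptor UNC5D, SEMA3C and EPHA3 were lower genes among guidance molecules. SEMA3C, a secreted semaphorin, had 38.2 and 48.1 CPM in the selected cells and 155.0 and 179 in the others, with log2 ratios of -1.67 (-1.78 and -1.70 in the sets) and -0.81 matched. EPHA3 was lower at -1.21, or -0.57 matched, the opposite side to the selection marker EPHA6 of the same receptor family. Of the 9 Eph receptors besides EPHA6 that were compared, EPHA3 alone was past the fold, and EPHA5, found in 94.4% of selected cells, stood at 0.01 in set 1 and 0.30 in set 2, or -0.03 and 0.28 matched.

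The remaining lower genes belong to no single group. EZR (ezrin, which ties the membrane to actin) had log2 ratios of -1.45 and -1.07 matched, DLG1 (a synaptic scaffold) -1.41 and -1.20, BTG1 (an antiproliferative factor) -1.38 (-1.43 and -1.41 in the sets) and -0.83 and THSD7A -1.35 and -1.02. TNFAIP8 had -1.71 and -0.97, DDAH2 -1.59 and -0.99, PHLDA1 -1.57 and -0.89, PRSS12 (neurotrypsin) -1.31 and -0.79 and PDE1C -1.22 and -0.83. KCND2, the potassium channel Kv4.2, was the one gene past the fold among 21 voltage-gated channel genes, at -1.07 (-1.18 and -1.13 in the sets) and -0.82 matched. The value of NTS (neurotensin, -1.59, with -2.57 and -1.69 in the sets, and -1.61 matched) rests on few cells, since 2 of the 912 cells held 128 of its 152 UMIs.

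Most ionotropic glutamate receptor genes had values above 0 before matching. Of 14 such genes reported here, 10 were above 0 in both sets and 4 below, with a median log2 ratio of 0.43 beside -0.01 over all genes. None of the 14 was past the fold. GRIA3 had 0.76, GRIA2 0.59 and GRIA1 0.58, while GRIK1 had -0.95. By set, GRIK2 had 0.47 and 0.56 and GRIA4 -0.58 and -0.79. Against matched neurons the median was 0.13, with 8 above 0 in both sets and 5 below, and GRIA3 had 0.57, GRIA2 0.23, GRIA1 0.39 and GRIK1 -0.25 (-1.03 in set 1 and -0.09 in set 2).

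Genes of neuronal maturation had a median log2 ratio of 0.34, which was 0.05 when matched. None of the 17 compared was past the fold. NRGN (neurogranin) had 0.98, but 0.16 in set 1 and 0.91 in set 2, and RBFOX1 -0.70 (-0.78 and -0.75 in the sets). NEFM had 0.19 in set 1 and 0.48 in set 2, and NEFL 0.40 and 0.46. After matching NEFM and NEFL were at -0.02 and -0.03, RBFOX1 was at -0.37, and NRGN was at -0.31 in set 1 and 0.65 in set 2. Among calcium-binding genes besides CALB2, VSNL1 had 0.31 in set 1 and 0.84 in set 2 (-0.02 and 0.71 matched), and CALB1 and PVALB were each found in 1 selected cell. In the families of the selection markers, none of 10 S100 and annexin genes, 7 calcium buffers, 6 genes of calcium pumps and 8 collagens passed the fold, the markers themselves left out.

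SLC17A6 and SLC17A7 encode the vesicular glutamate transporters VGLUT2 and VGLUT1. SLC17A6 was found in 18.0% of selected cells and 33.1% of the others, with a log2 ratio of -1.35 (-0.998 in set 1, which did not reach the fold, and -1.36 in set 2) and -0.82 when matched. SLC17A7 was found in 14.7% and 7.46%, with a ratio of 0.23. Part of these shares follows depth, and at 2000 UMIs SLC17A7 was expected in 4.52% and 3.50%.

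The levels of the named genes also changed step by step outside the selection. Among other excitatory neurons with 0, 1 and 2 of the 6 markers, all 12 higher genes rose at each step and 14 of the 15 lower genes fell, NTS being the exception. The steps count the selection markers, and the named genes were chosen by contrast with these same neurons. The trend is therefore a description and no independent support. How many of all genes rise or fall in this way was not computed. CSMD3 had 89.5 CPM in 5550 cells with no marker, 185 in 3387 cells with 1, 311 in 1606 cells with 2, 478 in 615 selected cells with 3 and 649 in 169 selected cells with at least 4. CUX2 went from 359 CPM to 201, 108, 69.6 and 52.0. The median total rose along the same steps from 2979 to 4110, 5488, 6508 and 7014 UMIs, and its part in these trends was not tested.

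**Figure D4:**
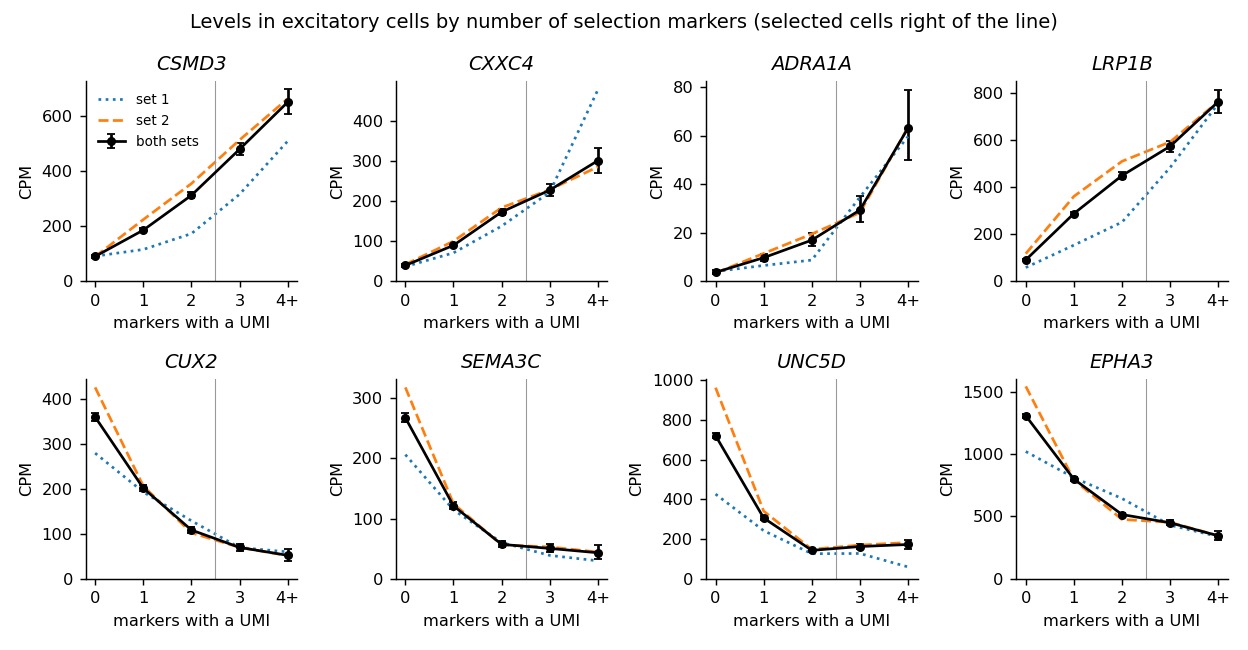
CPM (y axis) of 8 genes in excitatory cells by the number of the 6 selection markers with a UMI (x axis), in both sets together (black, exact Poisson 95% intervals), set 1 (blue, dotted) and set 2 (orange, dashed). CSMD3 rises from 89.5 to 649 CPM and CUX2 falls from 359 to 52.0, and the vertical line marks the selection limit.

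The selected cells were then set against 3 groups of cells with layer markers, each with a UMI of both genes of a pair and none of the excluded genes. These were 749 TLE4 FOXP2 cells (layer 6 type), 1756 CUX2 BCL6 cells (upper layer type) and 375 RORB PENK cells (layer 4 type). Their median totals were 3557, 3850 and 4367 UMIs, beside 6350 in the selected cells. Within the selected cells, 50 (5.48%) carried TLE4 with FOXP2, 53 (5.81%) CUX2 with BCL6 and 40 (4.39%) RORB with PENK. The same pairs were found in 4.04%, 15.98% and 4.70% of other excitatory neurons. The CUX2 BCL6 pair was thus less frequent in the selected cells than in other excitatory neurons.

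The named genes separated the selected cells most often from the CUX2 BCL6 cells. These genes were chosen by contrast with the other excitatory neurons. That pool includes 1509 CUX2 BCL6 cells but only 378 TLE4 FOXP2 and 338 RORB PENK cells. The counts of named genes are therefore tied to that choice and do not show which group is most distant. Over all genes, the order of the 3 groups depends on whether comparators with fewer than 3 excitatory genes are kept, as given below. Against CUX2 BCL6 cells 87 genes were higher (0.837% of 10398) and 51 lower (0.49%), and all 12 named higher genes and 13 of 13 named lower genes compared lay past the fold on the same side, leaving out CUX2, which chose these cells. With the comparators limited to cells with at least 3 excitatory genes, 12 and 11 did, and INSM1 and BTG1 did not. PDE1A had 209 CPM in the selected cells and 21.3 in CUX2 BCL6 cells, PCDH17 296 and 37.6 and MASP1 78.0 and 5.85. These cells were shallower, with a median of 3850 UMIs.

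Fewer of the named genes separated the selected cells from the other groups. Against RORB PENK cells 30 genes were higher (0.345% of 8685) and 23 lower (0.265%), with 3 of 12 named higher genes among them (CXXC4, PDE1A and MASP1) and 1 of 14 named lower genes. Against TLE4 FOXP2 cells 31 were higher (0.331% of 9379) and 410 lower (4.37%), and 1 of 12 and 4 of 15 named genes were past the fold, CSMD2 on the higher side.

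Of the 749 TLE4 FOXP2 cells, 378 had at least 3 excitatory genes. At least 2 were found in 71.4% of the 749 cells, and at least 2 endothelial markers in 5.21%. The group was shallower than the selected cells, so a cell with fewer than 3 excitatory genes can still be a neuron. The FEZF2, LDB2 and TOX values below are over all 749 cells. Against those 378 cells, a comparison added after the values were seen, 13 genes were higher (0.16% of 8124) and 89 lower (1.1%). The same limit gave 85 higher (0.84%) and 48 lower genes (0.474%) against CUX2 BCL6 cells and 36 (0.422%) and 26 (0.305%) against RORB PENK cells. Besides the 6 markers the 13 genes higher than in TLE4 FOXP2 cells, named after their values were seen, were STXBP6, CSMD2, CDH9, KCNIP2, PLXNA4, DGKB and CUNH8orf34. STXBP6, a regulator of SNARE assembly, had 335 CPM in the selected cells and 72.7 in the TLE4 FOXP2 cells. TLE4 itself, which chose the comparators, was at 165 CPM.

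Of the layer markers, FEZF2 in the selected cells lay between these groups with both sets pooled. At 2000 UMIs FEZF2 was expected in 12.6% of selected cells, 22.6% of TLE4 FOXP2 cells, 1.33% of CUX2 BCL6 cells and 3.46% of RORB PENK cells. FEZF2 had 20.1 CPM in selected cells of set 1 and 105.3 in those of set 2, with matched log2 ratios of -0.59 and -0.25. The shares above pool these sets, and 267 of the 375 RORB PENK cells are from set 1. They do not give the order of the groups within a set. LDB2, a partner of LIM factors in layer 5 neurons, is therefore given by set. It had 168 CPM in selected cells of set 1, 200.5 in TLE4 FOXP2 cells, 38.8 in CUX2 BCL6 cells and 65.1 in RORB PENK cells, and 327, 466, 96.5 and 124 in set 2. TOX had 120.5, 180.5, 54.2 and 37.0 CPM in set 1 and 373, 518, 143 and 136 in set 2. For both genes and in both sets the selected cells lay below the TLE4 FOXP2 cells and above the other groups. No layer 5 gene of 10 was past the fold against other excitatory neurons, and their median of 0.06 became -0.35 against matched neurons. BCL11B (CTIP2), which marks layer 5 neurons with subcortical axons, had a log2 ratio of -0.35 (-1.11 and -0.44 in the sets), which was -0.80 when matched (-1.55 and -0.78).

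**Figure D5:**
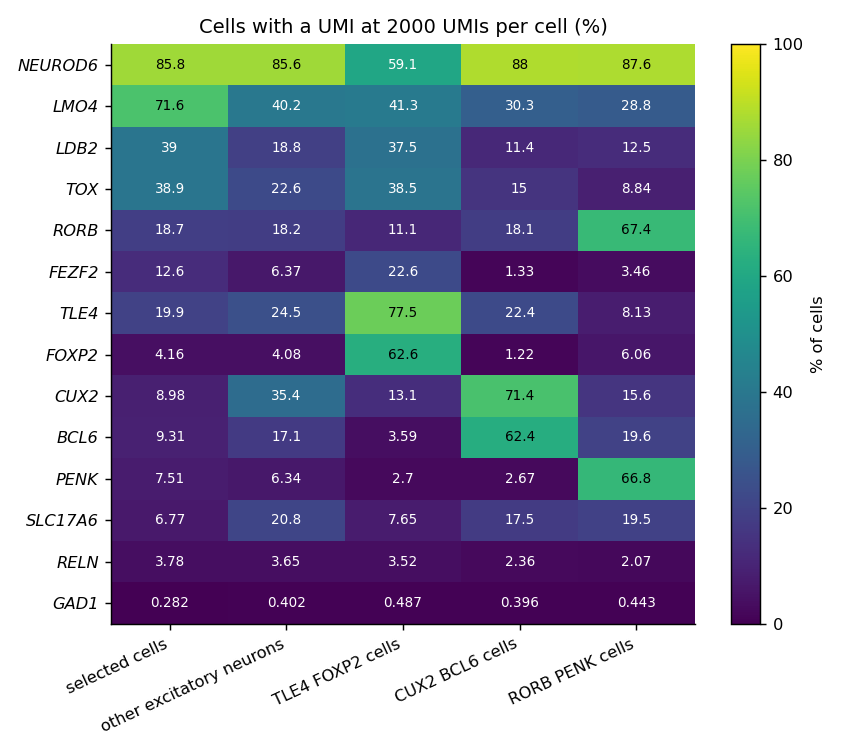
Expected share of cells with a UMI at 2000 UMIs per cell (colour and numbers, percent) for 14 markers (rows) in the selected cells, other excitatory neurons and the 3 groups chosen by layer markers (columns). With both sets pooled, LMO4 is at 71.6% in the selected cells and at 28.8% to 41.3% in the other columns, while CUX2 is at 8.98%.

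The selected cells were not uniform. FEZF2 was found in 257 of them, CUX2 in 178 and RORB in 350, and 94 cells had FEZF2 with RORB. Splits of the selected cells by a single gene were compared over 6093 genes with the same fold in both sets. Cells without a UMI of the splitting gene include cells that lost it by chance, so both sides of a split are mixtures. The genes named from these splits were chosen after their values were seen.

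FEZF2 cells were higher in 8 genes besides FEZF2 (0.148% with it) and lower in 12 (0.197%). TLE4 had a log2 ratio of 1.71, LYPD1 had 319 CPM in the FEZF2 cells and 67.1 in the others, RSPO3, a WNT potentiator, 70.3 and 9.02, and NPY1R, a neuropeptide Y receptor, 119 and 41.0. EPHA3, NTNG2 and INHBA were lower, EPHA3 at 212 and 504 CPM, as were FN1, SPARC, APOA1 and CLDN5, whose UMIs lay in few cells. FEZF2 cells numbered 19 in set 1 and 238 in set 2, so the CPM above, which pool the sets, can also carry differences between them. The median total of FEZF2 cells was 7189 UMIs against 5982.

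CUX2 cells were higher in 12 genes besides CUX2 (0.213% with it) and lower in 7 (0.115%). SEMA3C had 97.8 CPM with CUX2 and 31.8 without, THSD7A 308 and 84.1, UNC5D 298 and 122, KCND2 83.1 and 20.4 and SLC17A6 73.5 and 25.7. These are genes that were low in the selected cells as a whole or just missed the fold. RORB cells were higher in 11 genes besides RORB (0.197% with it) and lower in 5 (0.0821%). Among the higher ones TMEFF2 had 177 CPM with RORB and 33.2 without, NCAM2 198 and 42.2, CDH8 300.4 and 87.7 and BCL6 83.4 and 30.3. These values pool the sets, and the RORB cells numbered 56 in set 1 and 294 in set 2. The median total was 6949 UMIs with CUX2 and 6243.5 without, and 7013 with RORB and 5985 without. Over all selected cells TMEFF2 had 22.1 CPM in set 1 and 111 in set 2, and NCAM2 29.1 and 126.

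CALB2 cells were higher in no gene besides CALB2 (0.0164% with it) and lower in 12 (0.197%). Of the 276 CALB2 cells 30 were in set 1 and 246 in set 2, so values are given by set. PENK, the enkephalin precursor, had 30.4 CPM in CALB2 cells and 211 in the others in set 1, and 5.91 and 30.4 in set 2. SEMA3E, a secreted semaphorin, had 22.8 and 72.9 in set 1 and 11.2 and 44.5 in set 2, and EFNA5, an ephrin, 60.8 and 170.2 in set 1 and 44.9 and 101.5 in set 2. In set 1 the CALB2 cells held only 4 UMIs of PENK and 3 of SEMA3E. RSPO3 was also lower. FN1, SPARC, IGFBP7, APOA1 and CLDN5 were among the 12, and for CLDN5 4 cells held most UMIs. COL12A1 was also lower, but a cell without CALB2 had to carry 3 of the other 5 markers, so this value follows from the selection.

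COL12A1 cells were compared in the same way. The selection ties COL12A1 to CALB2, so both splits share cells and their values are not independent. COL12A1 cells were higher in 4 genes besides COL12A1 (0.0821% with it) and lower in 3 (0.0492%). Of the 271 COL12A1 cells 94 were in set 1 and 177 in set 2. PENK had 259 CPM in COL12A1 cells and 123 in the others in set 1, and 50.1 and 12.3 in set 2. SEMA3E had 102.6 and 34.1 in set 1 and 77.4 and 17.6 in set 2. FOXP2 and MAP3K5 were the other higher genes. RSPO3 and CNTN3 were lower, and CALB2 too, which again follows from the selection. SLN cells were higher in no gene besides SLN and lower in 10 (0.164%), among them TAFA2, RELN and CNTN3.

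The selected cells of the 2 sets differed in part of their genes. Of 10083 genes with at least 40 UMIs in the selected cells, 150 differed at least 2-fold between sets (1.49%). The share was 0.52% of 14044 genes in other excitatory neurons, but their sums are larger (15986701 UMIs in set 1, against 995585 in the selected cells), and the shares were not compared at equal totals. Of the 150 genes, 149 had the same sign and 44 also passed 2-fold in other excitatory neurons. How many of all genes share their sign was not computed. Both groups leaned to set 2, with a median log2 ratio over set 1 of 0.16 in the selected cells and 0.10 in the others. The count of 149 is therefore not a result about these genes.

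CALB2 and FEZF2 were commoner in set 2, and PENK, COL12A1 and SLN in set 1. CALB2 was found in 14.4% of selected cells of set 1 and 34.9% of set 2, FEZF2 in 9.13% and 33.8% and RERG in 52.4% and 73.3%. PENK was found in 31.2% and 7.10%, COL12A1 in 45.2% and 25.1% and SLN in 20.7% and 12.1%. In CPM, FEZF2 stood at 20.1 in set 1 and 105.3 in set 2 and PENK at 187 and 22.3.

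PENK and FEZF2 also differed between sets in neurons that were not selected. CALB2, COL12A1, SLN and RERG are selection markers, and these neurons could carry at most 2 markers. Marker levels there are limited by the selection, so they cannot show whether a set difference is particular to the selected cells. For CALB2 the log2 ratio of set 2 over set 1 was 0.85 in selected cells and 0.24 in the others. It was 0.36 and 0.58 for RERG, -1.21 and -0.44 for COL12A1 and -1.12 and -0.18 for SLN. PENK had 110.3 and 21.2 CPM in other excitatory neurons of sets 1 and 2, FEZF2 25.5 and 80.8, LMO4 247 and 792 and MEIS2, a homeobox factor, 380.0 and 1000.5. TMEFF2, CADM1 and TOX were higher in set 2 both in the selected cells and in the others. What the sets hold is not known, so a difference of cortical region, hemisphere or preparation between them cannot be told apart.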

How the data were processed

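Single cells of ferret cortex were sequenced on the 10x Chromium platform. The authors ran Cell Ranger, with a version and ferret genome build that are not given in the sources used here, and the deposited tables hold raw UMI counts, one value for each gene in each cell. The submitters' processing notes also list mm10, StringTie and Seurat 3. Of 22008 gene names, 21910 matched RefSeq symbols (ASM1176430v1.1).

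Selection rule, comparison groups and gene lists were chosen with earlier results of these data known, so they give no independent support to those results. Counts were summed per group and set and expressed as CPM, with 10 CPM added before log2 and at least 20 UMIs per set. Named genes were the 6 markers, up to 30 highest and 15 lowest genes past 2-fold in both sets, and list genes past it. Other named genes were chosen after their values were seen, as stated there. Intervals (95%) are exact binomial, Poisson and conditional binomial. Shares at 2000 UMIs are expected hypergeometric values over cells of at least that depth, and totals were matched by a seeded draw within bins. Of the other excitatory neurons, 9451 reached 2000 UMIs, as did 902 selected cells. A floor of 3 cells was used for a share of 0. Python 3.11.15, numpy 2.4.6, scipy 1.17.1 and pandas 2.3.3 were used, and the fold and interval steps were tested on simulated data. No doublet caller and no clustering were run. List genes without a row in the table, such as GFAP and SYP, were not analysed here, nor were sequences, and a few genes that met the rule or a list are not reported here.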

Additional observations from a re-analysis of the deposited data

How the results depend on the processing

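The number of selected cells followed the marker cutoff. At least 2 markers gave 12.4% of ferret cells, at least 4 gave 0.848%, and 3 of the other 5 gave 1.19% without S100A10, 1.14% without EPHA6, 3.61% without SLN, 3.21% without CALB2, 3.16% without COL12A1 and 2.00% without RERG. Among cells with at least 1500 genes the share was 6.61%, and at 2000 UMIs 1.22%. It was 2.04% to 5.39% with 1 set left out. The upper limits on genes and mitochondrial UMIs, or 0 UMI of GAD1, GAD2, DLX1, DLX2 and DLX5, left it within the interval.

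For 21 higher and 27 lower genes, a pseudocount of 1 CPM gave 56 and 90, the mean over cells of each cell's CPM 37 and 48, members with at least 4 markers 40 and 82, and all other ferret cells as comparator 43 and 147. Matching on total UMIs gave 8 and 4, all of them among the genes called before. Leaving out the deepest 5% of cells gave 43 lower genes. With 1 set left out the numbers were 25 to 58 higher and 39 to 58 lower. Against TLE4 FOXP2 cells, 31 and 410 genes became 13 and 89 with the comparators limited to cells with at least 3 excitatory genes, an alternative chosen after seeing the data. Of 336 alternative values of the 28 named genes, 140 moved and none changed sign. The alternatives reuse the selected cells or part of them, so an unchanged sign gives no independent support.

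The share of cells with a marker given at least 3 others moved with depth. At 3000 UMIs it was 60.2% for S100A10, 60.7% for EPHA6, 8.96% for CALB2, 7.28% for COL12A1 and 22.5% for RERG. Without thinning it was 68.5%, 72.5%, 14.7%, 12.8% and 38.3%, and 6.67% for SLN.

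No paired analysis was possible because both sets come from 1 embryo and no result comes from a test. Depth limits single genes in single cells, so a missing UMI of CALB2 or SLN does not show that a cell lacks the transcript.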

Other observations

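The 69 cells left out for an ADARB2 UMI had at least 3 of the 6 markers. NEUROD6 was found in 68 of them and MEF2C in 66, while GAD1 was found in 3 and GAD2 in 4. At least 3 of the 6 excitatory genes were found in 63, at least 2 of GAD1, GAD2, DLX1, DLX2 and DLX5 in 4, and both in 3. Most (54 cells) had a single ADARB2 UMI. CALB2 was found in 26 (37.7%, 26.3 to 50.2) and LMO4 in 61 (88.4%, 78.4 to 94.9), beside 30.3% and 87.5% of the selected cells. Their median total was 7380 UMIs.

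The same rule was applied by mouse symbols to the E18 mouse table, which pools sorted cortical cells of control Smo F/F and hGFAP-Cre; Smo F/F (Smo CKO) littermates of strain CD1. It was met by 1 of 17765 cells (0.00563%, 0.000143 to 0.0314). In the remaining mouse cells Col12a1 was found in 5.42%, S100a10 in 2.52%, Calb2 in 0.901%, Sln in 0.574%, Epha6 in 0.0676% and Rerg in 0.0563%. Species, age, sorting and gene annotation differ between the tables and cannot be told apart.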
